A study of Canis lupus familiaris with 10 samples.

Results

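The matrix metalloproteinases MMP1, MMP2, MMP3, MMP9, MMP13 and MMP14 and the tissue inhibitors of metalloproteinases TIMP1, TIMP2 and TIMP3 were examined in cultured cells of canine hemangiosarcoma, a malignant tumor of vessel-forming cells. These 9 genes were chosen by name, as 6 proteases and 3 inhibitors, and all 18 probe sets named for them were used, of the 42860 probe sets besides controls and of the 15115 genes with a probe set of their own. None of the 18 probe sets was named for a second gene. The study grew primary cultures from splenic tumors of 10 dogs, took RNA at the earliest passages at hand, and hybridized it to Canine_2 arrays, with 1 array per dog, to ask whether tumors of Golden Retrievers differ from those of other breeds. The Golden Retriever group held 6 dogs, with the males ChadG4, ChadG8 and Tucker and the females ChadG6, Frog and Journey. Frog and Journey were distantly related. The non-Golden Retriever group held 3 males, which were ChadP9 (a Portugese Water Dog, as the labels spell it), Dal4 (a Dalmation) and Joey (a Rottweiler). DD1, a male mixed breed dog from a Golden Retriever and a Great Pyrenees, was kept apart from both groups. No culture received a treatment.

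Matrix metalloproteinases are zinc enzymes that are secreted or held at the cell surface as inactive proenzymes and, once activated, cut the proteins of the extracellular matrix. TIMPs bind the active site of these enzymes one to one, and endothelial and mesenchymal cells both use the balance between them when vessels sprout or tissue is invaded. The collagenases MMP1 and MMP13 cut fibrillar collagen, the stromelysin MMP3 has broad substrates and activates other members, the gelatinases MMP2 and MMP9 cut denatured collagen and basement membrane collagen, and MMP14 is anchored in the membrane and activates the MMP2 proenzyme with TIMP2 as adaptor.

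All signals are on the log2 scale, so that 1 unit is a 2-fold change, and the level of a probe set was compared between dogs only, since probes differ in brightness. A probe set was tested where it lay above the 40th percentile of its array, a signal of 5.03 to 5.16, on at least 3 of the 10 arrays. Of the 18 member probe sets, 13 passed, from 8 genes, as did 26851 probe sets in all. The 5 that did not were the only probe set of MMP3, 1 of the 3 for MMP2, 2 of the 3 for MMP9 and 1 of the 2 for MMP13. No culture was arrayed again, so the SD of a group covers the dogs, their cultures and the arrays together. In bulk RNA, fewer cells of a type and less RNA per cell cannot be told apart.

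Of the endothelial markers, CDH5, KDR, TIE1, CLDN5 and ROBO4 were above the 40th percentile on every array, while PECAM1, TEK, ESAM and EMCN were above it on none. The endothelial list averaged 4.999 to 5.57 in Golden Retrievers and 4.90 to 5.500 in non-Golden Retrievers. Of 11 myeloid markers, 4 (CD14, CSF1R, CD68 and LAPTM5) were above the percentile on every array and 5, PTPRC and TYROBP among them, on none, with a mean of 5.12 to 5.58 over all dogs. Of 10 fibroblast markers, 8 were above it on every array, with means of 10.33 to 11.32 in Golden Retrievers and 9.39 (Dal4) to 11.05 in the others. The smooth muscle list ran from 6.56 (ChadG4) to 9.40, with 5 of 7 markers (ACTA2, TAGLN, CNN1, DES and SMTN) above the percentile on every array and LMOD1 on none. Of 6 lymphocyte markers, the T cell genes CD3E and CD2 were above it on every array and the B cell genes CD79A, CD79B and MS4A1 on none. The lymphocyte list averaged only 4.70 (Dal4) to 5.45 (DD1), close to the 40th percentile. One probe set of EIF2S3, a gene with copies on both sex chromosomes, read 2.95 in Dal4, 3.08 to 3.33 in the 3 females and 10.15 to 10.60 in the 6 other males, so Dal4 did not match its recorded sex there. The part of these differences in the results below was not tested.

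**Figure D1:**
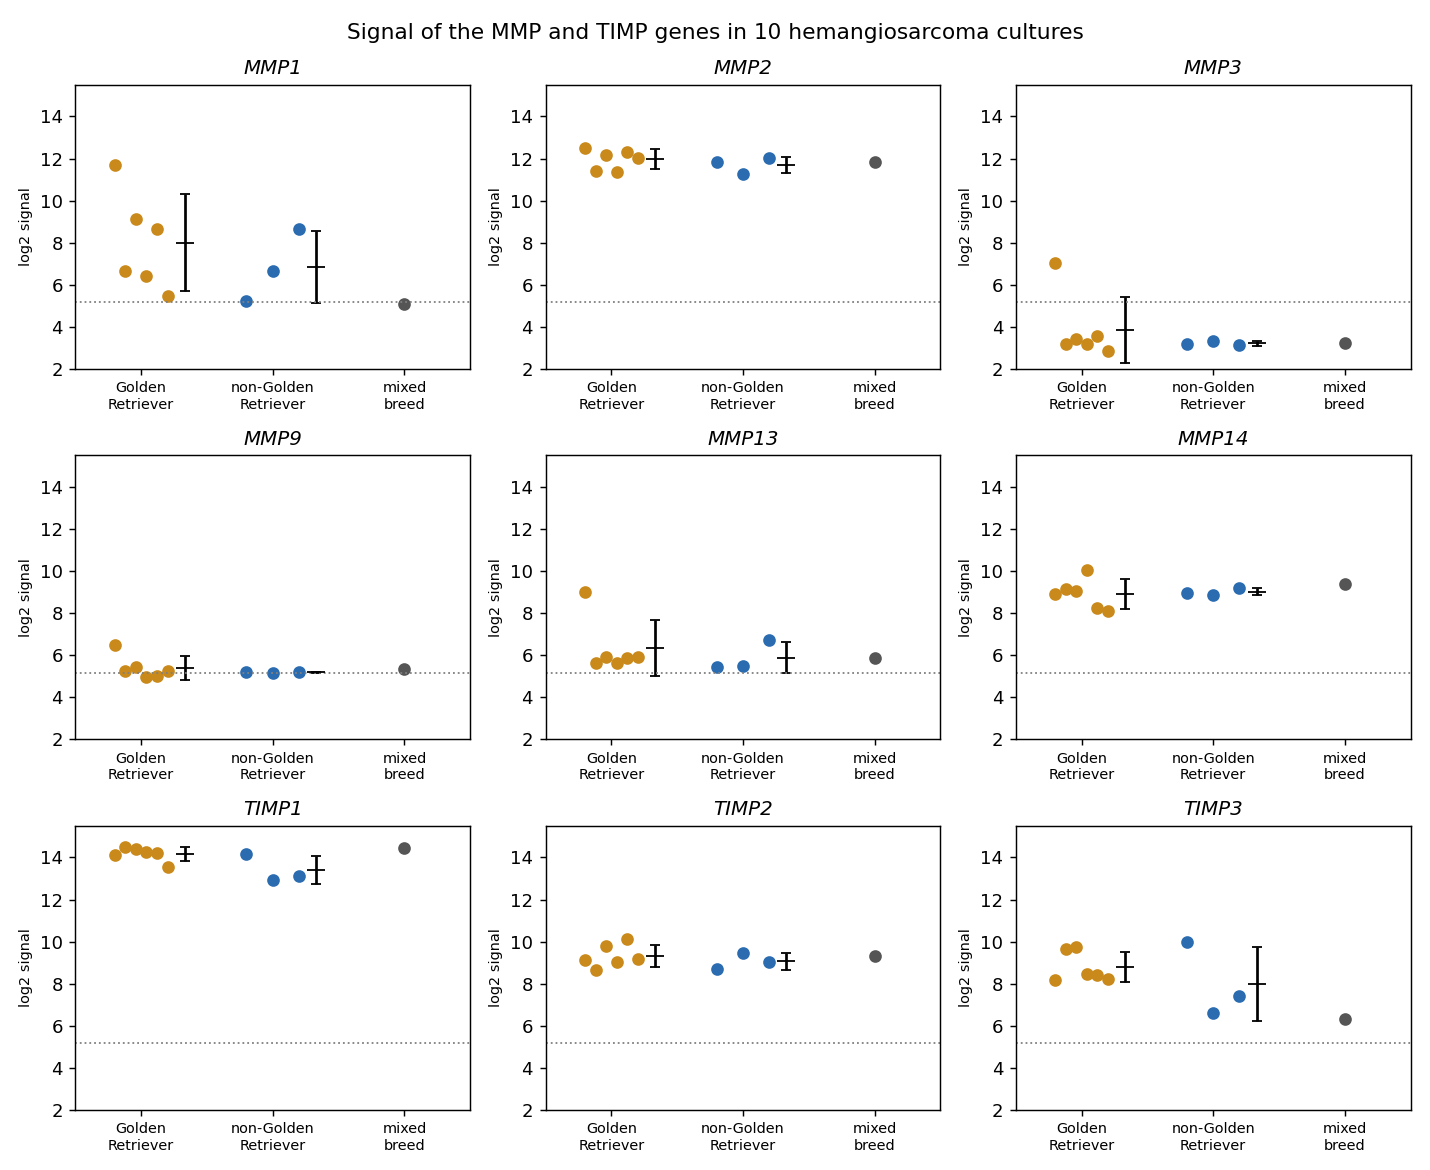
Log2 signal of the 9 MMP and TIMP genes in each of the 10 dogs, at the probe set of highest mean for each gene, with dogs set out by breed group, bars for the mean and SD of a group, and a dotted line at 5.16, the highest 40th percentile among the arrays. MMP1 spreads from 5.08 to 11.71, TIMP1 sits between 12.94 and 14.50, and MMP3 is above the line only in ChadG4.

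The collagenase MMP1 (gene ID 489428) varied most among the members. At its brighter probe set the signal ran from 5.46 in Tucker over a median of 7.66 to 11.71 in ChadG4 among Golden Retrievers. It was 5.24 in ChadP9, 6.66 in Dal4, 8.64 in Joey and 5.08 in DD1. ChadG4 was the highest dog, ChadG8 (9.12), Journey (8.66) and Joey formed the next values, and the breed groups overlapped. The range over the dogs was 6.62 log2 units, or 98.7-fold, and only 0.376% of all tested probe sets had a range as wide, against a median range of 1.06 over all tested probe sets. The lowest dogs, DD1 and ChadP9, lay near the 40th percentile (5.03 to 5.16), so the low end of this range is near background. ChadG4 lay 2.59 log2 units (6.04-fold) above ChadG8. The other MMP1 probe set ordered the dogs much alike, with 10.97 in ChadG4, 7.97 in Joey and 3.55 in ChadP9, and its correlation with the brighter one over the 10 dogs was 0.99.

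The collagenase MMP13 (gene ID 403763) was high in ChadG4 and lower in all other dogs. At its brighter probe set the signal in Golden Retrievers ran from 5.64 over a median of 5.89 to 9.01 in ChadG4. It was 5.45 in ChadP9, 5.47 in Dal4, 6.73 in Joey and 5.84 in DD1. ChadG4 stood 2.28 log2 units (4.85-fold) above Joey, the next dog, and 8 of the dogs lay between 5.45 and 5.93. The dimmer MMP13 probe set, which did not pass the filter, had 6.43 in ChadG4 and 3.28 to 3.80 in the others.

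The stromelysin MMP3 (gene ID 403445) was detected above the 40th percentile in ChadG4 alone. Its single probe set read 7.03 in ChadG4 and 2.83 to 3.54 in the other 9 dogs, a gap of 3.49 log2 units (11.2-fold) to Journey. The 9 lower dogs were all at or near background, so this gap is a lower bound, and MMP3 had no breed test.

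MMP13, MMP3 and MMP1 are neighbors on dog chromosome 5, in that order, with MMP12, which has no named probe set here, between MMP13 and MMP3 (gene order of assembly UU_Cfam_GSD_1.0). Beyond MMP1 lie MMP8 (neutrophil collagenase), MMP27, MMP20 (enamelysin) and MMP7 (matrilysin), and these did not share the high signal of ChadG4. MMP8 was 3.17 to 3.44 over the 10 dogs, MMP27 3.30 to 3.70, MMP20 3.83 to 4.45 and MMP7 3.52 to 4.15, all below the 40th percentile, with ChadG4 at 3.30, 3.53, 4.37 and 3.73. The flanking genes that are no proteases were well measured, and ChadG4 did not stand apart there. DCUN1D5 was 10.28 in ChadG4 and 9.52 to 10.54 in the others, TMEM123 was 10.22 against 10.11 to 11.28, and BIRC2 at its brightest probe set was 11.09 against 10.60 to 11.33. ChadG4 exceeded every other dog by at least 2 log2 units at 5 of the 18 member probe sets and at 130 of 42860 probe sets in all (0.303%), while the other dogs did so at 1 (DD1) to 22 (ChadG6) probe sets in all.

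**Figure D2:**
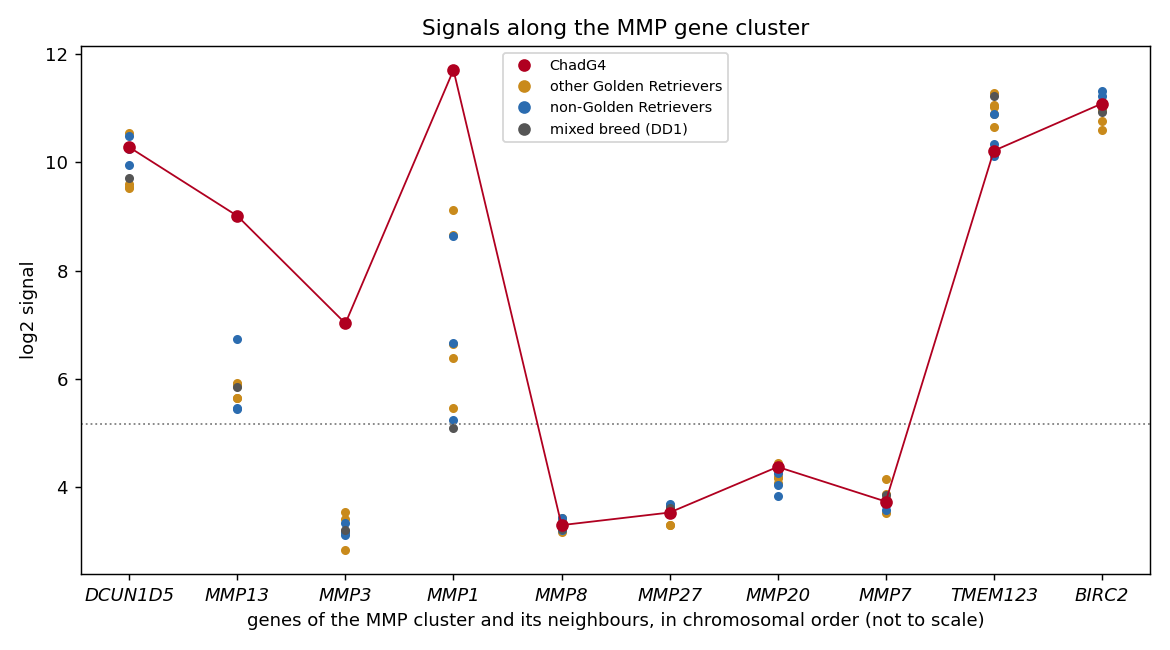
Log2 signal of each dog at the genes of the chromosome 5 metalloproteinase cluster and its flanks, in gene order, with ChadG4 marked and a dotted line at 5.16. ChadG4 lies above all other dogs at MMP13 (9.01), MMP3 (7.03) and MMP1 (11.71) and within their range at DCUN1D5, TMEM123 and BIRC2.

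The gelatinase MMP2 (gene ID 403733, chromosome 2) was high in every dog and varied little. At its brightest probe set the signal in Golden Retrievers ran from 11.36 in Frog over a median of 12.09 to 12.51 in ChadG4. It was 11.84 in ChadP9, 11.26 in Dal4, 12.00 in Joey and 11.84 in DD1. The range of 1.26 log2 units (2.39-fold) was matched or exceeded by 39.6% of tested probe sets, and neighbors in the order of dogs were close, with Dal4, Frog and ChadG6 (11.39) lowest. A dimmer probe set (8.79 to 10.09) ordered the dogs much alike (r = 0.93 over 10 dogs), while the third was at 4.37 to 4.92 in all dogs.

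The gelatinase MMP9 (gene ID 403885, chromosome 24) was close to the 40th percentile in all dogs but ChadG4. At its brightest probe set, the tested one, the Golden Retrievers ran from 4.96 in Frog over a median of 5.25 to 6.46 in ChadG4. ChadP9 had 5.196, Dal4 5.17, Joey 5.21 and DD1 5.33. ChadG4 was 1.03 log2 units (2.05-fold) above the next dog, ChadG8. The other probe sets of MMP9 did not show this. One had its lowest signal, 4.38, in ChadG4, with up to 5.09 elsewhere, and its correlation with the tested probe set was -0.42. The third was 3.61 to 3.91. Both of these probe sets were below the 40th percentile on every array, so their order of dogs carries little signal over background. A higher MMP9 level in ChadG4 therefore rests on 1 of 3 probe sets.

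The membrane-type protease MMP14 (gene ID 403823, chromosome 8) was expressed in all cultures, and ChadG4 was not its highest dog. At its single probe set the Golden Retrievers ran from 8.08 in Tucker over a median of 8.99 to 10.06 in Frog. The signal was 8.97 in ChadP9, 8.88 in Dal4, 9.22 in Joey and 9.39 in DD1. The non-Golden Retrievers all lay inside the range of the Golden Retrievers, which spanned 1.98 log2 units (3.95-fold). Of all tested probe sets, 15.4% had a range as wide.

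TIMP1 (gene ID 403816, chromosome X), a secreted inhibitor of most soluble metalloproteinases, was among the brightest signals of the arrays. At its single probe set the Golden Retrievers ran from 13.56 in Tucker over a median of 14.23 to 14.50 in ChadG6. ChadP9 had 14.16, Dal4 12.94, Joey 13.13 and DD1 14.43. Dal4 and Joey were the lowest of all dogs, whereas ChadP9 lay among the Golden Retrievers. The highest signal of any probe set was 14.58 to 14.77 by array, so differences among the upper dogs were read close to the top of the scale.

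TIMP2 (gene ID 403633, chromosome 9), which inhibits MMP2 and also takes part in its activation, ran from 8.65 in ChadG6 over a median of 9.15 to 10.13 in Journey among Golden Retrievers. At this single probe set the signal was 8.68 in ChadP9, 9.48 in Dal4, 9.03 in Joey and 9.31 in DD1. All 3 non-Golden Retrievers lay inside the range of the Golden Retrievers, ChadG8 (9.78) and Journey lay above them, and 29.3% of tested probe sets ranged as widely.

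TIMP3 (gene ID 481289, chromosome 10), the inhibitor that is bound to the matrix and also blocks ADAM proteases, was the inhibitor that varied most. At its brightest probe set the Golden Retrievers ran from 8.18 in ChadG4 over a median of 8.45 to 9.73 in ChadG8. ChadP9 had 9.98, Dal4 6.61, Joey 7.42 and DD1 6.34. The highest and the 2 lowest dogs of the purebred groups were thus all non-Golden Retrievers, and DD1 was lowest of all. The range was 3.64 log2 units (12.5-fold), which 3.52% of tested probe sets matched or exceeded. All 4 probe sets of TIMP3 had Dal4, Joey and DD1 as the 3 lowest dogs and ChadP9 and ChadG6 among their highest, and their pairwise correlations over the 10 dogs were 0.92 to 0.96.

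**Figure D3:**
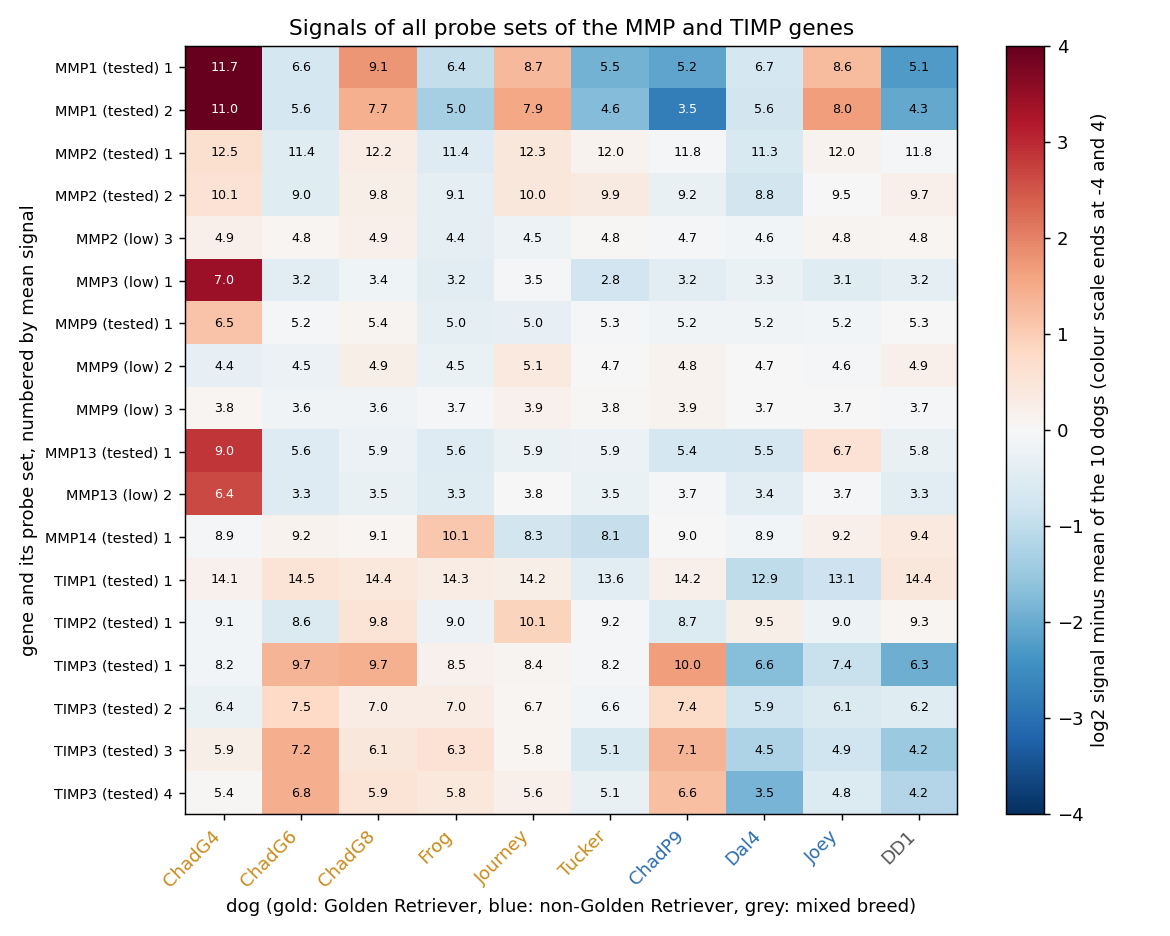
Log2 signals of all 18 member probe sets (numbers in the cells) in the 10 dogs, colored by the deviation from the mean over the dogs, with probe sets that did not pass the filter marked low. ChadG4 is the highest dog at both probe sets of MMP1 and of MMP13 and at MMP3, and the 4 probe sets of TIMP3 are low together in Dal4, Joey and DD1.

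The breed groups were compared for each tested probe set with limma, 6 dogs against 3, and a difference above 0 means more signal in Golden Retrievers. No member passed. Of the 13 member probe sets, 12 had a difference above 0, where 47.2% of all tested probe sets did, and 0 passed at an adjusted p under 0.05, where 1 probe set of 26851 did (0.00372%, a probe set of the MHC class I gene DLA88, with 2.98 in Golden Retrievers and 12.20 in non-Golden Retrievers on average). At an unadjusted p under 0.05, 1 member probe set was higher in Golden Retrievers, where 1.81% of all tested probe sets were, and none was lower, where 4.51% were (6.32% in either direction). By the methods' t-test 1 member probe set had an unadjusted p under 0.05 and 0 an adjusted p under 0.05. The groups overlapped at all 13 member probe sets, where 2.45% of all tested probe sets had groups that did not. The median member difference was 0.46, against -0.02 over all tested probe sets, with several probe sets of a gene counted apart.

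The member at an unadjusted p under 0.05 was TIMP1. The Golden Retrievers averaged 14.18 ± 0.329 (SD, n = 6) for this gene, and the 3 other purebred dogs 13.41 ± 0.657 (SD). The log2 difference was 0.76, or 1.70-fold (SE 0.292, 95% interval 0.11 to 1.42). By limma its p was 0.0271 and its adjusted p was 0.774. Without ChadP9 it was 1.14 (SE 0.243, limma adjusted p = 0.270), and without Dal4 it was 0.53 (limma adjusted p = 0.999). Over the alternatives run its adjusted p lay between 0.270 and 1.00.

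TIMP3 had the same split within the non-Golden Retriever group. At its brightest probe set the Golden Retrievers averaged 8.78 ± 0.710 (SD, n = 6) and the non-Golden Retrievers 8.002 ± 1.76 (SD, n = 3), and the difference of 0.78 (SE 0.687, limma adjusted p = 0.857) had an interval from -0.76 to 2.33. Without ChadP9 it was 1.77 (SE 0.492, limma adjusted p = 0.316), and without Dal4 it was 0.09. Leaving out ChadP9 put all 4 probe sets of TIMP3 and that of TIMP1 at an unadjusted p under 0.05, as it did for 11.7% of all tested probe sets. At the dimmest TIMP3 probe set Dal4 (3.54) and Joey (4.84) were below the 40th percentile. The same held at the next dimmest (4.45 and 4.90). There the comparison without ChadP9 set Golden Retrievers against dogs at background. TIMP2 differed by 0.25 (SE 0.325, interval -0.48 to 0.98), with 0.06 without ChadP9, 0.08 without Journey, 0.15 without ChadG8, 0.38 without ChadG6 and 0.45 without Dal4.

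Among proteases, MMP1 had a mean of 7.998 ± 2.29 (SD, n = 6) for Golden Retrievers, against 6.85 ± 1.71 (SD, n = 3) for non-Golden Retrievers. This difference of 1.15 (SE 1.31, interval -1.79 to 4.10, limma adjusted p = 0.897) was smaller than its SE, and it ran from 0.35 without ChadP9 and 0.41 without ChadG4 to 2.05 without Joey. MMP2 differed by 0.26 (SE 0.297, interval -0.41 to 0.93) at its brighter probe set, with 0.04 without Dal4 and 0.41 without Joey, and by 0.46 (SE 0.282, limma adjusted p = 0.793) at the dimmer one, with 0.27 without Dal4. In males alone, 3 against 3, the dimmer MMP2 probe set became the 1 member at an unadjusted p under 0.05 (0.73, limma adjusted p = 0.824) and TIMP1 no longer was (0.62, limma adjusted p = 0.906). MMP14 was the member with a difference below 0, at -0.10 (SE 0.384, interval -0.96 to 0.77), but it was 0.03 without Journey and 0.07 without Tucker. MMP13 differed by 0.45 (SE 0.727) and MMP9 by 0.20 (SE 0.303), and both turned to below 0 when ChadG4 was left out, at -0.08 and -0.02. A difference that did not pass is not shown to be absent, since the intervals of MMP1, MMP13 and TIMP3 span more than 3 log2 units.

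**Figure D4:**
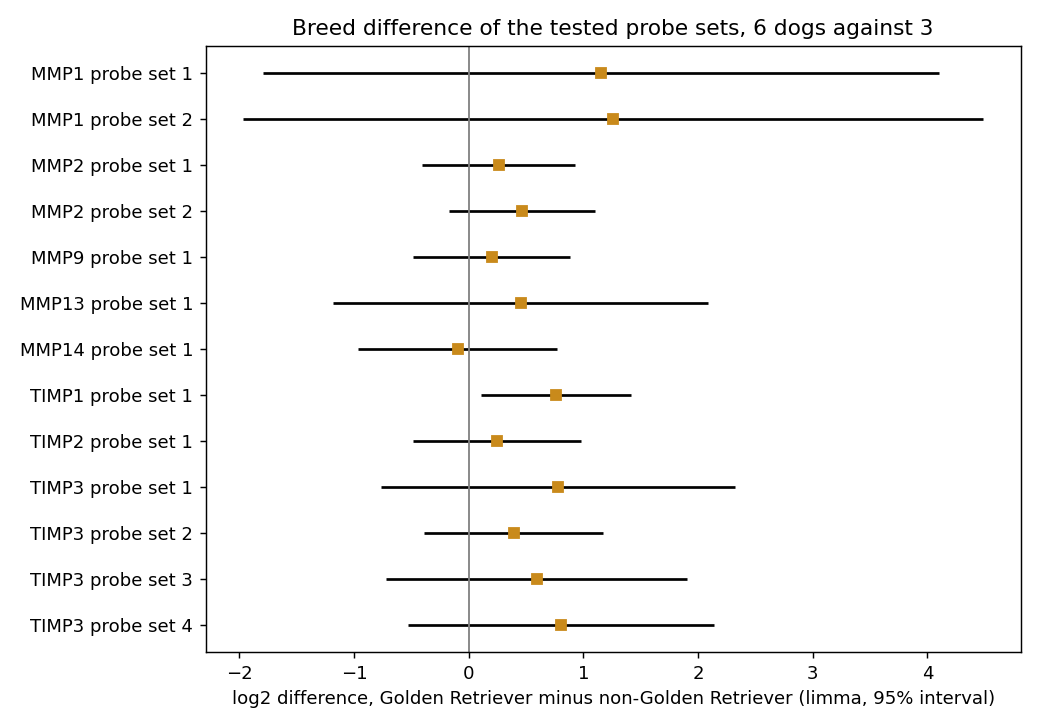
Log2 difference between the breed groups, above 0 where Golden Retrievers had more signal, of the 13 tested member probe sets, with the 95% interval of the limma fit as bars and a line at 0. The interval of TIMP1 (0.11 to 1.42) is the only one that leaves out 0, and those of MMP1 are the widest.

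To set each protease against an inhibitor, the log2 signal of the inhibitor was subtracted from that of the protease in each dog, and the result was given as the deviation from the mean over the 10 dogs, so that a value above 0 is a dog with more protease relative to inhibitor than the average dog. For the collagenases and the stromelysin against TIMP1, 1 dog stood at the top. MMP1 minus TIMP1 was 4.18 in ChadG4, 2.12 in Joey, 1.33 in ChadG8 and 1.08 in Journey. It was 0.32 in Dal4, between -1.49 and -1.25 in ChadG6, Frog and Tucker, -2.31 in ChadP9 and -2.73 in DD1. MMP1 was near background in ChadP9 and DD1. The span from DD1 to ChadG4, 6.92 log2 units, was that of MMP1 with little change, since TIMP1 was high in both dogs. MMP13 minus TIMP1 was 2.69 in ChadG4, 1.42 in Joey and -1.04 to 0.35 in the others, and MMP3 minus TIMP1 was 3.26 in ChadG4 and -0.97 to 0.77 elsewhere, with MMP3 at background there.

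For MMP9 against TIMP1, 3 dogs were highest. The deviation was 0.97 in ChadG4, which had the highest MMP9, and 0.88 in Dal4 and 0.73 in Joey, which had the lowest TIMP1. It was 0.34 in Tucker and between -0.65 and -0.32 in the remaining 6 dogs. The Golden Retrievers averaged -0.14 ± 0.656 (SD, n = 6) against 0.43 ± 0.652 (SD, n = 3) for the non-Golden Retrievers, so that the difference of -0.56 was smaller than the SD of either group.

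MMP2 against TIMP2 spread over 1.61 log2 units, about as little as MMP9 against TIMP1 (1.62). The deviation ran from -0.85 in Dal4 to 0.76 in ChadG4, with 0.52 in ChadP9, 0.34 in Joey, -0.10 in DD1 and -0.44 in Journey. The group means were 0.02 ± 0.442 (SD, n = 6) and 0.00 ± 0.746 (SD, n = 3). The difference between the groups, 0.01, became -0.41 without Dal4, -0.13 without ChadG4 and 0.27 without ChadP9, and -0.56 with ChadG4 and Dal4 left out together. MMP14 minus TIMP2 spread more widely, from -1.63 in Journey, where MMP14 was low and TIMP2 highest, to 1.28 in Frog, where MMP14 was highest. All 3 non-Golden Retrievers (-0.36 to 0.53) lay inside that range.

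MMP14 minus TIMP3 was highest in DD1, Dal4 and Joey, the dogs of lowest TIMP3, and next in Frog, the dog of highest MMP14. It was 2.36 in DD1, 1.57 in Dal4, 1.10 in Joey and 0.90 in Frog, 0.03 in ChadG4, and -1.70 to -0.85 in ChadP9, ChadG8, ChadG6, Journey and Tucker. The non-Golden Retrievers thus held both the lowest value of all dogs (ChadP9) and 2 of the 3 highest, and the group means were -0.56 ± 0.858 (SD, n = 6) for Golden Retrievers and 0.32 ± 1.77 (SD, n = 3) for the others. The groups overlapped for each of the 7 pairs, and no test was made of these differences, which are built from the members themselves.

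**Figure D5:**
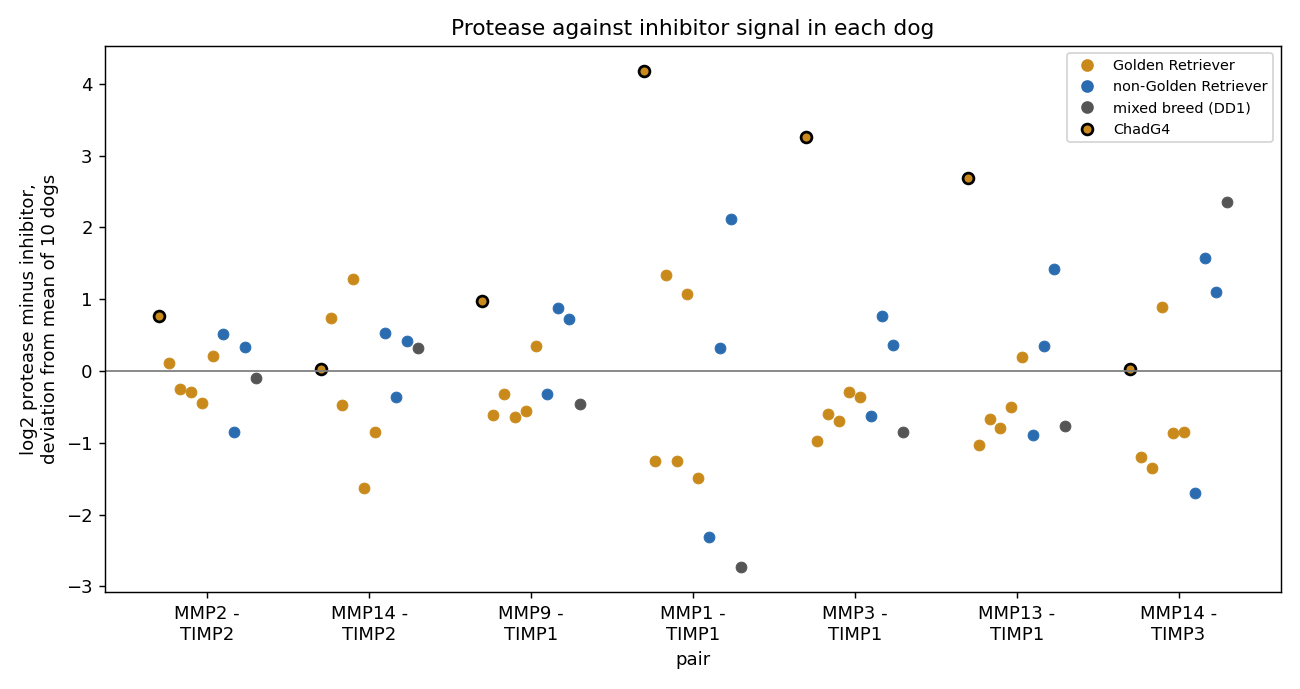
Protease minus inhibitor for 7 pairs in each dog, as the deviation of the log2 difference from the mean over the 10 dogs, grouped by breed. ChadG4 is highest for the pairs of MMP1 (4.18), MMP3 (3.26) and MMP13 (2.69) with TIMP1, and DD1 is highest for MMP14 with TIMP3 (2.36).

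Correlations over the 10 dogs were computed for the 28 pairs of tested member genes, each with a two-sided permutation p. By Pearson's r, 4 pairs had an unadjusted p under 0.05 and 0 an adjusted p under 0.05, and by Spearman's rho 1 pair and 0 pairs did. The 4 pairs were all among proteases. MMP1 and MMP13 had r = 0.80 (permutation p = 0.00806, adjusted p = 0.161) and rho = 0.56 (permutation p = 0.0953, adjusted p = 0.667), with r = 0.58 without ChadG4 and ChadG8. MMP2 and MMP13 had r = 0.65 (permutation p = 0.0115, adjusted p = 0.161) and rho = 0.76 (permutation p = 0.0153, adjusted p = 0.428), with r = 0.41 without Dal4 and ChadG4. MMP1 and MMP2 had r = 0.64 (permutation p = 0.0439, adjusted p = 0.293) and rho = 0.58 (permutation p = 0.0895, adjusted p = 0.667), with r = 0.32 without ChadG4 and ChadG8. MMP9 and MMP13 had r = 0.91 (permutation p = 0.0351, adjusted p = 0.293) and rho = 0.61 (permutation p = 0.0669, adjusted p = 0.667). Their r was 0.06 without ChadG4 and Frog and already 0.15 without ChadG4 alone, so that relation rests on ChadG4.

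No pair of a protease and an inhibitor had an unadjusted p under 0.05. MMP2 and its inhibitor TIMP2 had r = 0.40 (permutation p = 0.247, adjusted p = 0.714) and rho = 0.37 (permutation p = 0.294, adjusted p = 0.752), with r = 0.76 without Dal4 and ChadG4. MMP14 and TIMP2 had r = -0.40 (permutation p = 0.255, adjusted p = 0.714) and rho = -0.44 (permutation p = 0.205, adjusted p = 0.718), with r = -0.60 without Frog and Tucker. TIMP1 had r = 0.01 with MMP1, -0.01 with MMP13 and 0.13 with MMP9 (permutation p = 0.982, 0.981 and 0.754, each adjusted p = 0.982), and these signs turned in some of the settings tried. Their rho was -0.20, -0.19 and 0.18 (permutation p = 0.582, 0.608 and 0.633, each adjusted p = 0.886), and r without the 2 farthest dogs was -0.31, 0.31 and 0.26. TIMP1 and TIMP3 had r = 0.52 (permutation p = 0.122, adjusted p = 0.487) and rho = 0.39 (permutation p = 0.262, adjusted p = 0.752), with r = 0.09 without Dal4 and Joey.

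The named genes whose signal followed a member most closely over the 10 dogs are given by Pearson's r as a description, with 1 array per dog behind each point. For MMP1 these were L1CAM (a neural adhesion molecule, r = 0.92), TTC39B and CC2D1A, and for MMP13 they were MON1A (0.98), EMC9 and REPS2. ChadG4 was the highest dog at all of these 6 genes. For MMP2 they were IGFBP4 (a binding protein of insulin-like growth factors, 0.94), LRRC56 and GPM6B, and for MMP9 WDR44 (0.98), FCER1A and SLC25A43. For MMP14 they were CNOT6 (0.96), SLC20A2 and RABIF, with Frog highest and Tucker lowest at each. For TIMP1 they were CDH16 (a cadherin, 0.97), PTGFRN and PFKL (liver-type phosphofructokinase), each with Dal4 lowest, and CDH16 ran from 8.72 to 11.31. For TIMP2 they were SBF1 (0.91), AANAT and NGB, and for TIMP3 TIGIT (0.95), PVALB and DEXI, where the range of TIGIT was narrow, 5.76 to 6.04. Ranges were also narrow at others, such as SBF1 (5.69 to 6.08), LRRC56 (5.19 to 5.62) and AANAT (5.08 to 5.55).

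Other genes of matrix turnover were counted from fixed lists in the same limma fit. At an adjusted p under 0.05, 0 genes of any list passed, where 0.00372% of all tested probe sets did. Of all tested probe sets, 47.2% had a difference above 0, and their median difference was -0.02. At an unadjusted p under 0.05, 1.81% of them were higher in Golden Retrievers and 4.51% lower. Of 17 other matrix metalloproteinases, 15 had a named probe set and 7 were tested, with 4 higher and 3 lower in Golden Retrievers, 0 at an unadjusted p under 0.05 and a median difference of 0.06. MMP11 (stromelysin-3) had the smallest p, with a difference of -0.39 (SE 0.239, limma adjusted p = 0.794), followed by MMP25 (0.18, SE 0.152). MMP19 ranged most widely, over 3.38 log2 units, from 5.64 in DD1 to 9.02 in Dal4, with 8.92 in ChadG4. Of the ADAM and ADAMTS proteases, 15 of 27 were tested, with 9 higher and 6 lower, and 2 higher at an unadjusted p under 0.05, with a median of 0.15. These were ADAMTS2, which trims procollagen (0.65, SE 0.257, limma adjusted p = 0.774), and ADAMTS6 (0.69, SE 0.283, limma adjusted p = 0.774). ADAM28 ran from 4.79 in Frog to 7.86 in ChadG4.

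Of 13 other inhibitors and regulators of the family, 9 were tested, with a median of 0.47. Of these, 8 were higher and 1 lower, where 47.2% of all tested probe sets were higher. At an unadjusted p under 0.05, 1 gene was higher, where 1.81% of all tested probe sets were. That gene was PCSK6, a proprotein convertase, at 6.33 ± 0.955 (SD, n = 6) for Golden Retrievers against 4.76 ± 0.355 (SD, n = 3), a difference of 1.56 (SE 0.516, limma adjusted p = 0.774), and 1 of these 3 dogs was above the 40th percentile. LRP1, the receptor that clears proteases and their inhibitor complexes, had 0.63 (SE 0.300, limma adjusted p = 0.776), and the convertase PCSK5 ranged from 4.10 in Dal4 to 9.52 in ChadG6. RECK, a membrane-anchored inhibitor, had 0.47 (SE 0.250, limma adjusted p = 0.782), a value named here though the rule did not pick it. Taking the most variable probe set of each gene changed this list to 5 higher and 4 lower.

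In the plasminogen activation list, 7 of 10 genes were tested, 5 higher and 2 lower with a median of 0.31. SERPINB2, an inhibitor of urokinase, had both the smallest p (limma adjusted p = 0.774) and the widest range. It passed the filter only through Golden Retrievers, 4 of which were above the 40th percentile with ChadG4 highest at 7.09. The 3 non-Golden Retrievers were at background (3.25 to 3.63). For that reason no size of difference is given, and neither its direction nor its p is read as support. SERPINB2 is still counted among the 5 higher genes and in the median of this list. SERPINE2 (protease nexin) had 0.71 (SE 0.516). Of 20 matrix substrates, 18 were tested, 15 higher and 3 lower with a median of 0.13, where 47.2% of all tested probe sets were higher. At an unadjusted p under 0.05, 2 substrates were higher, where 1.81% of all tested probe sets were. These substrates were decorin (DCN, 0.74, SE 0.297, limma adjusted p = 0.774) and the laminin chain LAMA4 (3.48, SE 1.39, limma adjusted p = 0.774). LAMA4 was at background in Dal4 (4.74), 10.08 in ChadP9 and 13.01 in Joey (SD of these dogs 4.19). Joey thus lay among the Golden Retrievers, which held 12.25 (ChadG6) to 13.35 (Journey). Of 16 AP-1 and ETS transcription factors, families that bind metalloproteinase promoters, 12 were tested, 6 higher and 6 lower with a median of 0.01. ERG was higher at an unadjusted p under 0.05 (0.90, SE 0.356, limma adjusted p = 0.774), JUN (-0.62, SE 0.259) and ATF3 (-0.63, SE 0.268) were lower, and FOS ranged most widely, over 3.46 log2 units, with its highest signal, 11.33, in Frog.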

How the data were processed

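RNA of cultured splenic hemangiosarcoma cells was measured on 1 array for each of 10 dogs. The authors deposited log2 signals from RMA (affy, per the labels), a method that corrects background, normalizes arrays to one distribution and sums the probes of a probe set. Versions of these tools and the build behind the array are not given in the sources used here. Quantile normalization sets the arrays to a like distribution, so a change shared by most genes would not be seen, and the values hold no depth. The number of arrays limits the precision.

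Of 43035 probe sets, 175 controls were left out. Gene names came from the platform annotation, by which 29254 probe sets had 1 symbol, 439 several and 13167 none, and gene order and chromosomes from assembly UU_Cfam_GSD_1.0. Groups followed the breed labels, sex the study's table of dogs, and relatedness its methods text. Signals were fitted with limma 3.58.1 (lmFit and eBayes, R 4.3.3), two-sided, with Benjamini-Hochberg adjustment over 26851 probe sets above the 40th percentile of their array on at least 3 of 10 arrays. The study's own filter used detection calls, which were not used here. Correlations used 100000 permutations (scipy 1.17.1). The scripts were tested on simulated data. A limma or t-test p-value sets a difference against the spread between dogs within a group, which also holds their cultures and arrays. Correlation p-values come from permuting the dogs.

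The members and gene lists were chosen with earlier results of these data known. The text names all member probe sets, from each list the 2 tested genes of smallest p and the gene of widest range, any gene at an adjusted p under 0.05 and the 3 genes most correlated with each member. RECK, ATF3, the markers and the genes beside the chromosome 5 cluster were named outside that rule, after their values were seen. A gene with several probe sets was represented by the brightest. Alternatives were the filter, the scaling, the variance prior, the methods' t-test, the placing of the mixed breed dog, the probe set of a gene, males only and each dog left out. Sequences of the members were not analysed here.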

Additional observations from a re-analysis of the deposited data

Results flagged for a closer look

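Among the 6 Golden Retrievers, 25 sets of values (the 18 member probe sets and the 7 protease minus inhibitor pairs) were searched for a dog far from the rest, by the gap of the highest or lowest dog to its neighbor as a share of the whole range, with a critical value of 0.625. In 6 of the 25 sets the share was above it, where chance gives about 1 in 20, and in each of the 6 the dog was ChadG4, as the highest. Over all 42860 probe sets besides controls, 8.75% had a dog this far from the rest and 2.10% had ChadG4 as that dog on the high side, against 4 of the 18 member probe sets. The share was 0.831 for MMP3, 0.915 and 0.835 for the brighter and the dimmer probe set of MMP13, and 0.689 for the brightest probe set of MMP9. It was 0.838 for MMP3 minus TIMP1 and 0.672 for MMP13 minus TIMP1. MMP3 and the dimmer MMP13 probe set were above the 40th percentile in ChadG4 alone, so these shares, and that of MMP3 minus TIMP1, set ChadG4 against dogs at background. Among the 13 tested member probe sets the count was 2, where 2.11% of all tested probe sets had ChadG4 this far above. The sets share members and a dog, so they are not independent. The non-Golden Retriever group has 3 dogs and was not searched.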

How the results depend on the processing

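Each dog was left out in turn, and the filter, scaling, test and choice of probe set were varied. The removal of ChadG4 and Dal4 together, and of ChadG4 from the correlations, were chosen after seeing the data. No member passed at an adjusted p under 0.05 under any alternative. Over all tested probe sets, the count at an adjusted p under 0.05 was 1, and it became 0 with the mixed breed dog as a non-Golden Retriever, 2 by the methods' t-test, 2 without ChadG4 and Dal4, and 1 to 2 with single dogs left out (2 without Joey). Member probe sets at an unadjusted p under 0.05, 1 in the fit reported, became 0 with the mixed breed dog as a non-Golden Retriever, 0 without ChadG4 and Dal4, and 0 to 5 with single dogs left out (0 without ChadG6, ChadG8, Dal4 or Joey and 5 without ChadP9). Without ChadG4 and Dal4 the breed difference turned to -0.0707 for MMP2 at its brightest probe set, -0.0252 for MMP9 and -0.29 for MMP13, and that of MMP2 minus TIMP2 went from 0.01 to -0.56. With single dogs left out, the difference was -0.0153 to 0.28 for MMP9, -0.0829 to 0.88 for MMP13 and -0.33 to 0.0700 for MMP14. In males alone the count stayed at 1 but the member changed from TIMP1 (0.62, limma adjusted p = 0.906) to the dimmer MMP2 probe set (0.73, limma adjusted p = 0.824), with Dal4 counted as male. Correlations near 0 changed sign. That of MMP1 with TIMP1 was -0.0140 with the mean over tested probe sets, -0.10 without ChadG4 and -0.31 without the 2 farthest dogs, and that of MMP13 with TIMP1 was 0.31 without the 2 farthest dogs. That of MMP14 with TIMP3 was 0.0608 with the mean over probe sets and 0.27 in Golden Retrievers alone, where MMP9 with TIMP1 was -0.0438. With the most variable probe set of each gene, the other inhibitors and regulators had 5 higher and 4 lower (8 and 1 before), plasminogen activation 1 lower (2 before) and matrix substrates 5 lower (3 before). The cause of these changes was not tested. Other breed differences of members kept their direction. Of the protease minus inhibitor differences, which had no test, 4 of 7 changed sign as single dogs were left out, at -0.79 to 1.43 for MMP1 with TIMP1 (-0.22 without ChadG4 and Dal4), -0.75 to 0.18 for MMP3 with TIMP1, -0.90 to 0.26 for MMP13 with TIMP1 and -0.41 to 0.27 for MMP2 with TIMP2. No paired analysis was made, since the groups hold different dogs with 1 array each and the dogs are not paired between groups. In all dogs but ChadG4, MMP9 lay close to the 40th percentile, and MMP3 and the dimmer MMP13 probe set lay below it. The dimmer MMP1 probe set was above it on 6 of 10 arrays, and the dimmest TIMP3 probe sets on 6 and 7. Levels near or below it carry little signal over background.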
